A study of Rattus norvegicus with 12 samples.

Results

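S100b, Sox10, Gfap, Cdh19, Mbp and Ngfr are genes of Schwann cells and other glia, and they were followed here in RNA from pancreatic islets of Sprague Dawley rats. They were taken from the deposited count table by gene symbol, and for each symbol the transcript with the highest mean count over all libraries was used. These are 6 of the 25888 gene symbols in the table, with 10 of its 30309 transcripts. All 10 passed the filter on low counts, as did 20733 transcripts in all. The islets came from rats with intrauterine growth restriction (IUGR) and from control rats, each at 2 and at 10 weeks of age, with 3 libraries in each of the 4 groups. Growth was restricted by ligation of both uterine arteries of the dam at embryonic day 18. Control litters were reduced to 8 pups, and all dams and offspring had free access to standard chow. The labels do not say whether control dams had a sham operation, which sex the rats were or whether islets of several rats were pooled. The submitters call the replicates biological, but nothing ties a library to a litter, so the p-values measure only the spread between these libraries.

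Schwann cells are the glia of peripheral nerves, and they come from the neural crest. In the pancreas they run with the nerve fibres and form a thin sheath around islets, made mainly of cells that do not myelinate. Sox10 encodes the transcription factor that marks this lineage and is needed for it. Cdh19 encodes a cadherin of Schwann cell precursors and their descendants, and Ngfr encodes the low-affinity neurotrophin receptor p75, which immature and non-myelinating Schwann cells carry. S100b encodes a calcium-binding protein and Gfap an intermediate filament protein, both used as stains for the islet sheath. Mbp encodes myelin basic protein, which compacts the myelin membrane and is made in the central nervous system too, while some transcripts of the same locus are made in cells without myelin.

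RefSeq windows of 250 bases before to 50 bases after a gene's start (assembly GRCr8) were at hand for 4 of the 6 genes, namely S100b, Gfap, Cdh19 and Mbp. Sox10 and Ngfr are named only. The windows were searched on both strands for 4 spellings of the core motif of SOX factors, because Sox10 is itself among the genes described. The spellings searched were AACAAAG as the first, AACAATG as the second, TACAAAG as the third and TACAATG as the fourth. Other spellings of the motif were not searched, so a window without a match may still hold one of those. No match overlaps another in the windows shown. Of all 33469 windows of this length, 5000 (14.9%) hold at least 1 match to the spellings searched. Mbp was the only one of the 4 genes with a match to these spellings, in the window of the downstream of its 2 starts. There AACAATG lies on the opposite strand at position -197 and on the gene's own strand at position -163, counted from the start. S100b, the gene with the largest fall at 10 weeks, and both Mbp starts are shown, with matches in capitals, 5′ to 3′ on the gene's strand. A match describes the letters of a window and says nothing of binding.
S100b, GRCr8 chr20:12381032-12381331, minus strand: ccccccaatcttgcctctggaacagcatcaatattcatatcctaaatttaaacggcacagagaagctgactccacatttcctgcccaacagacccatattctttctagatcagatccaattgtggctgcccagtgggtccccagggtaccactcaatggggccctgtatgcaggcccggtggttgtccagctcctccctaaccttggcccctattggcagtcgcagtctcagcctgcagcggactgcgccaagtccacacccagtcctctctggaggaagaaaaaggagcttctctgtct
Mbp, upstream start, GRCr8 chr18:78130402-78130701, plus strand: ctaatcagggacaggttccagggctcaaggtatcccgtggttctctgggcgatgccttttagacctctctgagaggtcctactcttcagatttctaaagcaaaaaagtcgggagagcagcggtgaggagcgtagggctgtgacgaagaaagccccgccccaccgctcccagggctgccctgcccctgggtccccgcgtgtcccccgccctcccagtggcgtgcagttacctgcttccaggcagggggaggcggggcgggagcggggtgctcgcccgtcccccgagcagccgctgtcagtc
Mbp, downstream start, GRCr8 chr18:78209995-78210294, plus strand: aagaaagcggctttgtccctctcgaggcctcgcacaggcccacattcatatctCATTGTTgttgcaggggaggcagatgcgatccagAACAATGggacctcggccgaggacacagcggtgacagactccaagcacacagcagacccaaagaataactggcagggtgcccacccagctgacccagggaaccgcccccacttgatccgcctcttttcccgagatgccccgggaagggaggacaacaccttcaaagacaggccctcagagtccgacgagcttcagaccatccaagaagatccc

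The libraries held between 30.4 and 64.2 M counts (M, mega). Ins1 and Ins2, the rat insulin genes, took 4.40 to 4.82% of counts in IUGR islets and 1.57 to 4.09% in control islets at 2 weeks, and 18.6 to 19.97% in IUGR islets and 3.72 to 9.76% in control islets at 10 weeks. Genes of acinar cells, the digestive-enzyme cells around islets, took 4.38 to 9.37% of counts in IUGR and 21.7 to 42.3% in control libraries at 2 weeks. At 10 weeks they took 0.624 to 2.32% in IUGR libraries, against 43.0, 13.9 and 46.9% in control replicates 1, 2 and 3. Levels below are CPM, counts put on a common library total with TMM factors, which ran from 0.440 to 1.401 and were lowest in control replicates 1 and 3 at 10 weeks. In such bulk RNA, fewer glia and less RNA per glial cell cannot be told apart. Transcript lengths of the build used were not at hand, so levels are compared between libraries and not between genes.

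**Figure D1:**
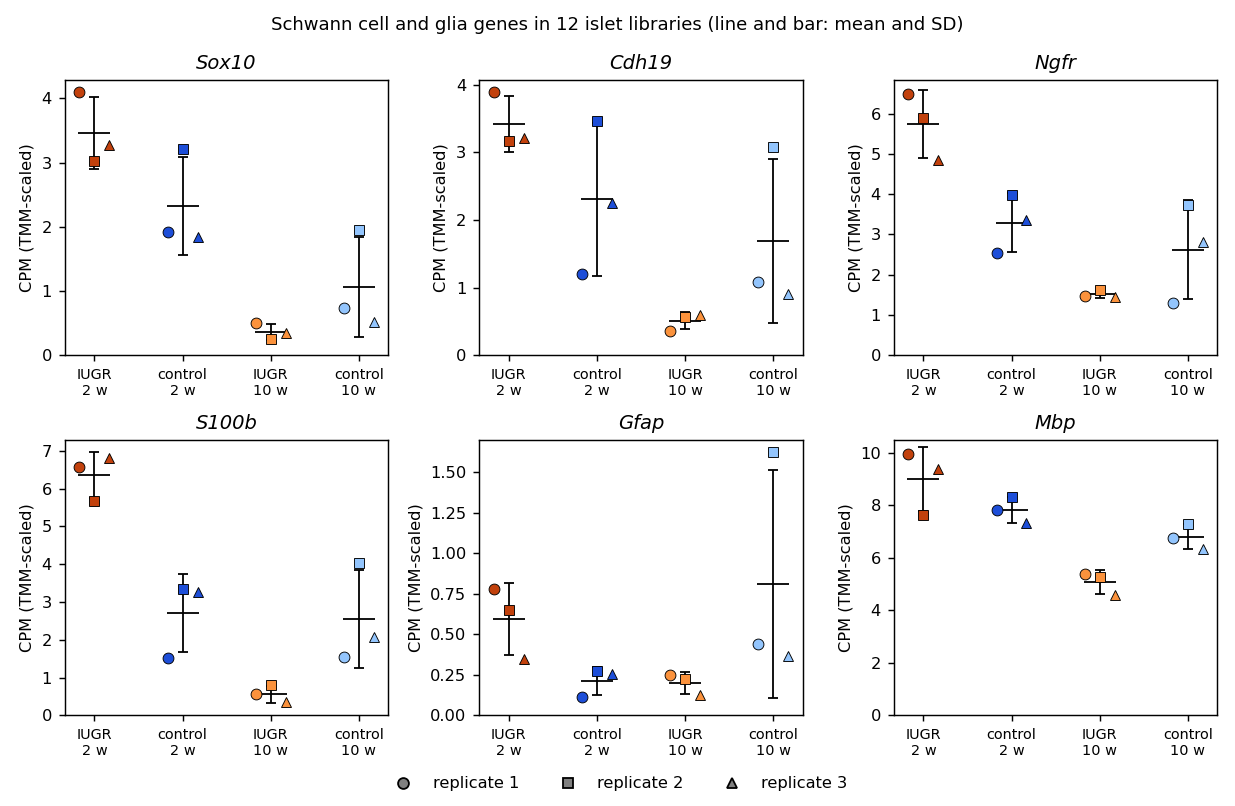
Level of each of the 6 genes in every library, in CPM with TMM factors; symbols are libraries by replicate number, and the lines and error bars are the group mean and SD (n = 3). S100b lay at 5.68 to 6.81 CPM in IUGR islets at 2 weeks and at 0.346 to 0.797 CPM in IUGR islets at 10 weeks.

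Sox10, the lineage factor, was lowest in IUGR islets at 10 weeks. At 2 weeks it stood at 4.10, 3.03 and 3.27 CPM in the IUGR libraries and at 1.92, 3.21 and 1.84 CPM in the control libraries. At 10 weeks the IUGR libraries had 0.501, 0.249 and 0.346 CPM, against 0.729, 1.95 and 0.511 CPM in the control libraries. The groups overlapped at 2 weeks and did not at 10 weeks, where the lowest control library was only just above the highest IUGR library. The log2 difference between IUGR and control was 0.57 ± 0.41 (SE, adjusted p = 0.370) at 2 weeks and -1.58 ± 0.49 (adjusted p = 0.0346) at 10 weeks, by edgeR's quasi-likelihood test. Means ordered the groups as IUGR at 2 weeks (3.47 ± 0.560), control at 2 weeks (2.32 ± 0.767), control at 10 weeks (1.06 ± 0.776) and IUGR at 10 weeks (0.365 ± 0.127 CPM, SD, n = 3 each). Only 42 Sox10 counts were found in the 3 IUGR libraries at 10 weeks together.

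Cdh19, the cadherin, followed the same order of groups. Its levels at 2 weeks were 3.90, 3.17 and 3.21 CPM in IUGR islets and 1.20, 3.46 and 2.26 CPM in control islets. At 10 weeks they were 0.362, 0.573 and 0.593 CPM in IUGR islets, against 1.08, 3.08 and 0.913 CPM in control islets. Control replicate 2 was the highest library of its group at both ages, and the 10-week groups did not overlap. The log2 difference was 0.56 ± 0.45 (adjusted p = 0.423) at 2 weeks and -1.75 ± 0.51 (adjusted p = 0.0275) at 10 weeks.

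Ngfr, the neurotrophin receptor, was the gene whose 10-week groups overlapped. In IUGR islets it had 6.49, 5.90 and 4.84 CPM at 2 weeks, against 2.55, 3.99 and 3.35 CPM in control islets. At 10 weeks the IUGR libraries lay close together at 1.48, 1.62 and 1.46 CPM, while the control libraries had 1.30, 3.74 and 2.81 CPM. Every IUGR library was above every control library at 2 weeks, and control replicate 1 was below all IUGR libraries at 10 weeks. Neither difference passed the test, with log2 values of 0.80 ± 0.30 (adjusted p = 0.122) at 2 weeks and -0.79 ± 0.32 (adjusted p = 0.0865) at 10 weeks. The 10-week value was -1.08 (adjusted p = 0.00578) without control replicate 1 and -0.40 (adjusted p = 0.355) without control replicate 2, and it passed in 1 of the 12 fits that left out 1 library.

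S100b, the calcium-binding protein gene, differed most clearly. At 2 weeks it had 6.58, 5.68 and 6.81 CPM in IUGR islets and 1.52, 3.34 and 3.26 CPM in control islets. At 10 weeks it had 0.557, 0.797 and 0.346 CPM in IUGR islets and 1.55, 4.02 and 2.08 CPM in control islets. The groups did not overlap at either age, with IUGR above control at 2 weeks and below it at 10 weeks. The log2 difference of 1.22 ± 0.38 at 2 weeks missed the threshold (adjusted p = 0.0795), and without control replicate 2 of the 10-week group, which shares the fit's estimate of spread, it was 1.17 (adjusted p = 0.0376). The 10-week difference of -2.18 ± 0.43 passed (adjusted p = 0.00588), and it passed with any 1 of the 12 libraries left out.

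Gfap, the filament gene, had few counts, between 4 and 69 in a library, so each level carries a large counting error. At 2 weeks it had 0.780, 0.652 and 0.351 CPM in IUGR islets and 0.114, 0.274 and 0.255 CPM in control islets. At 10 weeks it had 0.251, 0.224 and 0.124 CPM in IUGR islets, against 0.444, 1.62 and 0.365 CPM in control islets. The groups did not overlap at either age, and the mean of the 10-week controls rests largely on replicate 2. Differences on the log2 scale were 1.43 ± 0.59 (adjusted p = 0.147) at 2 weeks and -2.06 ± 0.62 (adjusted p = 0.0311) at 10 weeks. A second Gfap transcript had a mean of 10.8 counts per library, against 22.1 for the one used.

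Mbp, the myelin protein gene, moved least. Its levels at 2 weeks were 9.96, 7.62 and 9.39 CPM in IUGR islets and 7.81, 8.31 and 7.34 CPM in control islets. At 10 weeks they were 5.40, 5.28 and 4.57 CPM in IUGR islets and 6.75, 7.31 and 6.35 CPM in control islets. The 2-week groups overlapped and the 10-week groups did not. The log2 difference was 0.20 ± 0.12 (adjusted p = 0.292) at 2 weeks and -0.42 ± 0.13 (adjusted p = 0.0297) at 10 weeks. This last direction depended on the scaling, since on total counts without TMM factors it was 0.36 (adjusted p = 0.430), where the median of all transcripts shifted by 0.82. Relative to that shift it was -0.45. The 4 Mbp transcripts in the table had mean counts between 342 and 343.1 per library, so they share nearly all their reads and are 1 measurement.

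At 2 weeks none of the 6 genes passed the test between IUGR and control by edgeR, 3 had an unadjusted p under 0.05 and DESeq2 called 1, S100b. Over all 20733 transcripts tested, 5939 had an unadjusted p under 0.05 by edgeR and DESeq2 called 3219. All 6 log2 values were above 0, as were 55.5% of all transcripts tested, and their median was 0.69 against 0.05 over all transcripts. With the mean level of acinar genes as a covariate, Sox10, Gfap and Cdh19 turned below 0, at -0.56, -0.20 and -0.78, and Ngfr had 0.16, none of them passing. Of all transcripts, 1.66% were called higher and 2.21% lower by edgeR's adjusted p. In 3 genes, S100b, Gfap and Ngfr, the IUGR libraries all lay above the control libraries, which held for 21.8% of all transcripts.

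At 10 weeks 5 of the 6 genes fell in IUGR islets and Ngfr did not pass. Over all transcripts 12.4% were called higher and 15.5% lower, and the groups did not overlap, with IUGR lower, in 18.9%. The same 5 genes had groups that did not overlap on the TMM scale. As shares of counts outside the acinar list 3 did not overlap (S100b, Gfap and Cdh19), and as shares of all counts 0 of the 6. The median of the 6 log2 values was -1.66, against -0.01 over all transcripts. Control replicate 2, which had the lowest acinar share of its group, held the highest level of all 6 genes among the 10-week libraries. Without it only S100b still passed (-1.65), and the values were -0.76 for Sox10, -1.01 for Gfap, -0.94 for Cdh19 and -0.35 for Mbp, with adjusted p between 0.110 and 0.198 for these 4 genes, and -0.40 for Ngfr. Without IUGR replicate 1, 2 or 3 the number that passed was 2, 1 and 1, and Mbp missed the threshold without any 1 of the 6 libraries of that age. With the mean level of acinar genes as a covariate only Cdh19 passed (-4.41, adjusted p = 0.0496), while S100b, Sox10 and Gfap had -3.19, -3.78 and -5.05 with adjusted p between 0.0694 and 0.125. On total counts without TMM factors none passed, and S100b had -1.57 (adjusted p = 0.0507). The acinar shares of IUGR and control libraries did not overlap at either age. The values with the covariate therefore reach beyond shares that both conditions had, and the acinar share and IUGR cannot be told apart. The part of the acinar share in these differences was not tested.

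**Figure D2:**
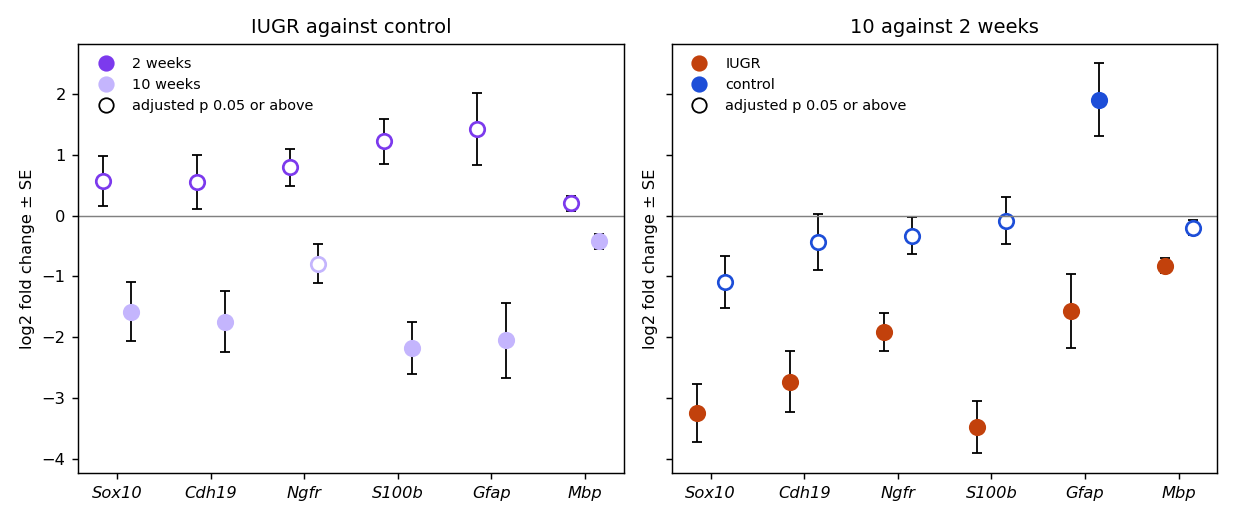
Log2 fold change of each gene with its SE, for IUGR against control at each age (left) and for 10 against 2 weeks in IUGR and in control islets (right); open points did not pass the adjusted p of 0.05. At 10 weeks the 6 values lie between -2.18 and -0.42, and at 2 weeks all 6 are above 0.

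The IUGR difference itself changed with age for all 6 genes. The 10-week log2 value minus the 2-week value was -3.40 ± 0.57 for S100b (adjusted p = 0.00539) and -3.48 ± 0.86 for Gfap (adjusted p = 0.0222). For Cdh19 it was -2.31 ± 0.68 (adjusted p = 0.0440) and for Sox10 -2.16 ± 0.64 (adjusted p = 0.0453). Ngfr had -1.59 ± 0.44 (adjusted p = 0.0356), and Mbp had the smallest value at -0.62 ± 0.18 (adjusted p = 0.0373). Over all transcripts 3.97% were called with a higher and 10.4% with a lower difference. S100b passed with any 1 library left out, whereas between 1 and 6 of the genes passed across the 12 fits that left out 1 library each. Without control replicate 2 at 10 weeks the values were -1.28 for Sox10, -1.45 for Cdh19, -1.14 for Ngfr and -0.50 for Mbp, none of which passed, while S100b (-2.82) and Gfap (-2.38) did. Sox10, Cdh19 and Ngfr passed in 3 of the 12 fits each, Mbp in 2 and Gfap in 9. The fewest, 1 gene, passed without IUGR replicate 1 at 2 weeks or IUGR replicate 3 at 10 weeks.

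With age, all 6 genes fell in IUGR islets, and their 10-week libraries all lay below their 2-week libraries. Of all transcripts, 27.3% were called higher and 29.2% lower at 10 weeks in IUGR islets, and 35.5% did not overlap in the lower direction. The log2 difference of S100b was -3.48 ± 0.43 (adjusted p = 6.81e-05) and that of Sox10 -3.25 ± 0.48 (adjusted p = 0.000200). Cdh19 had -2.74 ± 0.50, Ngfr -1.92 ± 0.32 and Mbp -0.82 ± 0.12, with adjusted p of 0.000847 or less. The fall of Gfap, -1.57 ± 0.61, passed narrowly (adjusted p = 0.0465) and missed the threshold in 7 of the 12 fits that left out 1 library, with values between -1.84 and -1.32 over the 12.

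In control islets 1 of the 6 genes changed with age, and it rose. Gfap was higher at 10 than at 2 weeks by 1.91 ± 0.60 on the log2 scale (adjusted p = 0.0323), but by 0.88 (adjusted p = 0.195) without control replicate 2 at 10 weeks. It also missed the threshold without any 1 of the 2-week controls, at 1.64 to 2.10. S100b had -0.08 ± 0.38, Cdh19 -0.43 ± 0.46 and Ngfr -0.33 ± 0.31, and none of the 3 passed. With 1 library left out in turn, S100b ran from -0.59, without control replicate 2 at 10 weeks, to 0.16, without control replicate 1 at 10 weeks, and without the same libraries Ngfr had -0.70 and -0.03. Sox10 had -1.09 ± 0.43 (adjusted p = 0.0744), and without control replicate 2 at 10 weeks Sox10 and Cdh19 both passed, at -1.89 and -1.21. Over all transcripts 17.2% were called higher and 15.1% lower. Groups did not overlap in Gfap, with the 10-week libraries higher (20.6% of all transcripts), and in Mbp, with them lower (20.5%), although the value of Mbp, -0.20 ± 0.12, did not pass.

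**Figure D3:**
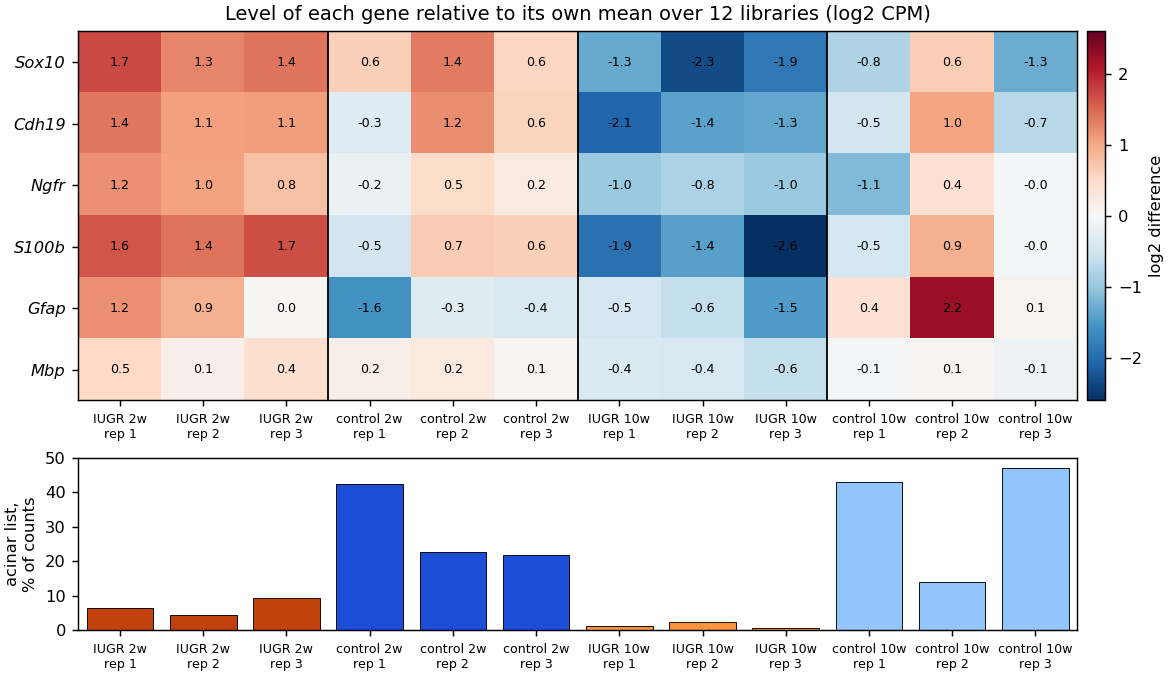
Heat map of each gene's log2 CPM relative to its own mean over the 12 libraries, above bars for the percentage of each library's counts in acinar genes. Control replicate 2 at 10 weeks, with an acinar share of 13.9%, has the highest level of its age for all 6 genes.

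Across the 12 libraries the genes other than Gfap kept close company. Pearson's r of log2 CPM ran from 0.835 to 0.936 between them and from 0.435 to 0.645 with Gfap. These values describe libraries that share age, condition and acinar share, and carry no test. Among the genes most like Sox10 were Adamts7 and Tsku (r = 0.971 to 0.975). For S100b they were Cryab (r = 0.977), the small heat shock protein gene, Tll1 and Lxn. For Ngfr they were Fyn (r = 0.986), a tyrosine kinase gene, Lrrfip1 and Nkx2-3. Cdh19 was most like Aatk, Adcy4 and Plekhg2 (r = 0.969 to 0.970), Mbp most like Paqr4, Tgm2 and Nkd1 (r = 0.947 to 0.954), and Gfap most like Rin3, Klc1 and Slc16a3 (r = 0.899 to 0.922).

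Other genes of Schwann cells and of satellite glia, the glia around peripheral neurons, were lower in IUGR islets at 10 weeks in many cases. The list counts that follow can be set beside the shares of all transcripts given above, which were 15.5% lower and 12.4% higher at 10 weeks, 10.4% lower for the difference, 29.2% lower with age in IUGR islets, and 15.1% lower and 17.2% higher with age in control islets. Of 21 tested, 10 fell, none rose and 11 did not pass, with a median log2 value of -1.36. Those with the smallest p were Sostdc1 (-4.44 ± 0.64), Cadm4 (-1.36 ± 0.20), an adhesion gene of axon and Schwann cell contacts, Lgi4 (-2.35 ± 0.36), a secreted signal that Schwann cells need to myelinate, and Col28a1 (-3.04 ± 0.50). At 2 weeks none of the 21 passed, with a median of 0.45, and in the difference between ages 10 were lower. At 2 weeks 19 of the 21 were above 0, against 55.5% of all transcripts, but Sostdc1 was below 0 at -1.50 ± 0.48. With age in IUGR islets 18 fell and 1 rose, and in control islets 4 fell and 1 rose, which is near the share of all transcripts for the falls. The riser in both was Lgals3bp, named after its values were seen.

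Among 18 tested genes of peripheral myelin, 7 fell in IUGR islets at 10 weeks and 1 rose, with a median of -0.84. Pmp22, a membrane protein gene of compact myelin, fell by 1.77 ± 0.25 on the log2 scale. Egr2, the transcription factor of myelination, had -2.21 ± 0.47, and Gjb1, the connexin of Schwann cell myelin, -3.55 ± 0.76. Mpzl2 fell by 2.62 ± 0.51, while Ugt8, an enzyme of myelin lipid synthesis, rose by 0.80 ± 0.19. Ugt8 was chosen after its values were seen. It averaged 15.3 CPM in IUGR and 13.5 CPM in control islets at 2 weeks, and 77.6 and 44.5 CPM at 10 weeks. Its group means had the same order as those of Ins1, and the cells it came from are not known. At 2 weeks Gldn alone passed, higher in IUGR islets by 0.74 ± 0.18, and the list's median was 0.63. Of the 18 genes 14 were above 0 at that age, against 55.5% of all transcripts. Gjb1 and Mpzl2 were below 0 there too, at -1.97 ± 0.68 and -0.98 ± 0.46, and neither passed. In the difference between ages 5 were lower, and with age 12 fell and 1 rose in IUGR islets, while 5 fell and 1 rose in control islets.

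Of 12 tested genes of repair Schwann cells, the state after nerve injury, 3 fell in IUGR islets at 10 weeks. They were Tnc (-3.47 ± 0.50), a matrix protein gene, Jun (-1.24 ± 0.24), the transcription factor of that state, and Nes (-0.86 ± 0.19), a filament gene that is on the stellate list too. In bulk RNA the cells from which Tnc, Jun and Nes came, like those of Egr2 and Gjb1 above, are not known. At 2 weeks Nes was higher in IUGR islets by 0.79 ± 0.19, the only one of the 12 to pass. In the difference between ages 6 were lower. With age 10 fell in IUGR islets and 4 in control islets.

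Ligands and receptors of the neuregulin, neurotrophin and GDNF families, through which axons and Schwann cells signal, had 5 of 18 lower and 1 higher in IUGR islets at 10 weeks. The smallest p among those lower were those of Erbb3 (-1.63 ± 0.33), the neuregulin receptor of Schwann cells, and of Gfra2 and Gfra3 (-1.15 ± 0.32 and -1.42 ± 0.43), receptors of the GDNF family. Ntrk2, the receptor of BDNF, rose by 0.80 ± 0.13. Its group means, like those of Ugt8, had the order of those of Ins1, and its source cells are not known. Erbb3 and Gfra3 are also on the Schwann cell list. None of the 18 passed at 2 weeks, and 4 were lower in the difference between ages. With age 12 fell and 4 rose in IUGR islets, and 7 fell and 3 rose in control islets.

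**Figure D4:**
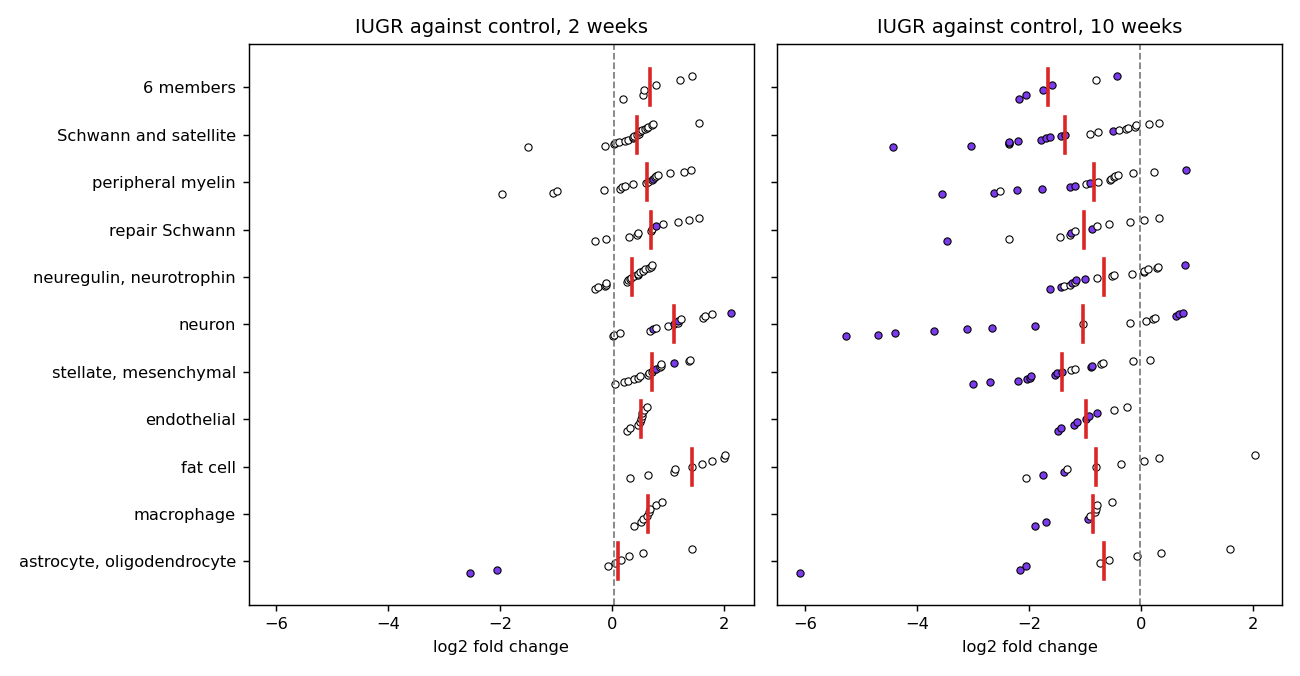
Log2 fold change of each tested gene of each list for IUGR against control at both ages; points are genes, filled where the adjusted p was under 0.05, red bars are list medians and the dashed line is the median of all transcripts. The 6 glial genes ("members") have medians of -1.66 at 10 weeks and 0.69 at 2 weeks, and the stellate and mesenchymal list has -1.41 and 0.72.

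Markers of other cell types that lie around islets were also lower in part in IUGR islets at 10 weeks. Those of acinar cells fell most widely, and many of stellate, mesenchymal and endothelial cells fell too. Of 17 stellate and mesenchymal genes, 11 fell and none rose in IUGR islets at 10 weeks, and their summed level ran from 540.3 to 717 CPM in IUGR and from 1141 to 2187 CPM in control libraries. At 2 weeks 2 of them rose, Thy1 and Nes, with sums of 10300 to 12040 CPM in IUGR and 4997 to 8755 CPM in control libraries. Most of the sum at 2 weeks was Col3a1, a collagen gene, with means of 6870 CPM in IUGR and 4408 CPM in control islets. Of 9 endothelial genes 7 fell at 10 weeks, with sums of 347 to 462 CPM in IUGR and 541 to 933 CPM in control libraries, and none passed at 2 weeks. Of 9 fat cell genes 2 fell at 10 weeks and none passed at 2 weeks, with sums of 35.9 to 46.9 CPM in IUGR and 71.3 to 159 CPM in control libraries at 10 weeks. Most of the fat cell sum at 10 weeks was Fabp4, with means of 27.6 CPM in IUGR and 92.5 CPM in control islets. That sum says little of the other fat cell genes. Of 8 macrophage genes 3 fell at 10 weeks and none passed at 2 weeks, with 49.0 to 75.7 CPM in IUGR and 60.4 to 157 CPM in control libraries at 10 weeks, so these sums overlapped. With age in control islets 3 macrophage genes rose. Of 34 acinar genes 32 fell at 10 weeks and 5 at 2 weeks, and of 10 endocrine genes 3 rose at 10 weeks and 1 at 2 weeks. The part of these cell types in the glial results was not tested.

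Neuronal genes did not move as 1 group. Of 15 tested, 7 fell and 3 rose in IUGR islets at 10 weeks, and 4 rose at 2 weeks. The 4 falls with the smallest p at 10 weeks were those of Nefl (-4.39 ± 0.65), a neurofilament gene, Dbh (-3.11 ± 0.49), an enzyme of noradrenaline synthesis, Nos1 (-4.70 ± 0.79), the neuronal nitric oxide synthase, and Vip (-5.28 ± 0.91), a neuropeptide gene. The 4 that rose at 2 weeks were Tubb3 (1.11 ± 0.21), Nefm (0.74 ± 0.15), Stmn2 (1.18 ± 0.26) and Th (2.13 ± 0.49). The summed level of the list was 288 to 325 CPM in IUGR and 196 to 252 CPM in control libraries at 10 weeks. Most of it was Map2, a gene of the neuronal cytoskeleton, with means of 228 CPM in IUGR and 148 CPM in control islets, so the sum says little of the other genes. The group means of Map2 also had the order of those of Ins1, and its source cells are not known.

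Cell types that share single markers with Schwann cells were checked by their own genes. Opalin, which marks oligodendrocytes, had no count in any library, and Mobp, another myelin gene of the brain, had none in the controls, and 5 counts in the IUGR libraries at 10 weeks and 1 at 2 weeks. Other genes of that list were present. Mog, a myelin gene of oligodendrocytes, averaged 2.33 CPM in IUGR and 1.88 CPM in control islets at 2 weeks, and 3.30 CPM in IUGR and 2.57 CPM in control islets at 10 weeks. Cldn11, a tight junction gene of myelin, averaged 3.59 CPM in IUGR and 3.47 CPM in control islets at 2 weeks, and 0.221 CPM in IUGR and 0.359 CPM in control islets at 10 weeks. Neither passed between IUGR and control at either age. Mog and Cldn11, like Map2, Col3a1, Fabp4 and the melanocyte genes named here, were named after their values were seen. Of 8 tested astrocyte and oligodendrocyte genes, 3 fell at 10 weeks, Aldh1l1, Slc1a3 and Gfap itself, and 2 at 2 weeks, Aldh1l1 and Aqp4. The summed level of all 12 genes of that list was 9.05 to 10.1 CPM in IUGR and 18.4 to 47.1 CPM in control libraries at 10 weeks. In control islets at 10 weeks Aldh1l1 averaged 17.1 CPM and Slc1a3 12.5 CPM, against 0.247 and 2.81 CPM in IUGR islets. The sum therefore says little of the other genes. Aldh1l1 had log2 differences of -2.54 at 2 weeks and -6.09 at 10 weeks, beside medians of -2.65 and -5.70 over the acinar genes. The cells from which Aldh1l1 came are not known. Among melanocyte genes, which Sox10 also marks, 2 of 6 could be tested and neither passed between IUGR and control. Tyr and Mlana, which define that cell type, had 3 counts or fewer in each group. The 2 genes tested were Mitf and Pmel, and they were present in every group. Mitf averaged 2.23 CPM in IUGR and 2.40 CPM in control islets at 2 weeks, and 3.39 CPM in IUGR and 2.66 CPM in control islets at 10 weeks. Pmel averaged 1.74 CPM in IUGR and 1.87 CPM in control islets at 2 weeks, and 1.62 CPM in IUGR and 1.37 CPM in control islets at 10 weeks.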

How the data were processed

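The authors deposited counts per transcript under Ensembl identifiers, as whole numbers that were not normalized. Per the labels' protocols, islets were isolated with collagenase and a Histopaque gradient, and RNA with an integrity number above 7 went into stranded, ribosome-depleted libraries. TopHat2 2.0.9, bedtools, rn5 and mm9 appear in the submitters' processing notes with no role for each. The counting rule, the use of strand and the annotation release are not stated there.

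The counts were fitted with edgeR 4.0.16 (R 4.3.3) after filterByExpr, with TMM factors and 1 robust quasi-likelihood model of the 4 groups, and 5 comparisons were tested by F tests. P-values were adjusted by Benjamini-Hochberg over 20733 transcripts, and an adjusted p under 0.05 passed. Each SE was derived from the log2 fold change and its F. The steps were tested on simulated data in which all groups had the same mix of transcripts, apart from the changes put in. Those data lacked the differences in acinar and insulin share seen here, so they do not bear on the scaling. The genes and the 14 lists, the 6 genes among them, were chosen with earlier results of these data known. From each list at most 4 passing genes with the smallest p are named, and for each of the 6 genes the 3 symbols with the highest r (log2 CPM with a prior count of 2). Some genes that these rules take are not reported here. There were 8 alternatives, DESeq2 1.42.0 among them. Each of the 12 libraries was also left out in turn, and 2 scalings were added after seeing the data.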

Additional observations from a re-analysis of the deposited data

Results flagged for a closer look

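With all libraries in the fit, the difference between IUGR and control islets at 10 weeks differed from that at 2 weeks for all 6 genes, by edgeR's test of the difference itself. The 10-week log2 value minus the 2-week value was -3.40 for S100b, -2.16 for Sox10, -3.48 for Gfap, -2.31 for Cdh19, -0.62 for Mbp and -1.59 for Ngfr. S100b and Gfap had the largest values and Mbp the smallest. With 1 library left out in turn S100b passed in all 12 fits and Gfap in 9, but Sox10, Cdh19 and Ngfr in 3 each and Mbp in 2. Without control replicate 2 at 10 weeks Sox10 had -1.28 and Cdh19 -1.45. The acinar share of counts differed between IUGR and control libraries at both ages, and its part in these values was not tested.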

How the results depend on the processing

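At 2 weeks, where none of the 6 genes and 804 transcripts passed, 1 gene and 3219 transcripts passed with DESeq2, and 149 transcripts without the filter on low counts. With the acinar level as a covariate 0 transcripts passed by edgeR, 2216 of them at an unadjusted p under 0.05. Without both 10-week controls of highest acinar share, which leaves 1 control assumed to vary like the other groups, 2 genes and 1807 transcripts passed. At 10 weeks, against 5 genes and 5776 transcripts, the covariate left 1 gene and 554 transcripts, 7.04% of them higher against 44.5%. In controls over age, against 1 gene and 6693 transcripts, 2 genes passed with DESeq2 and 2 with the covariate, and 3690 transcripts without both controls.

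A pair of scalings were chosen after seeing the data. On total counts without factors, 16 transcripts passed at 2 weeks, 0 genes at 10 weeks, 0 genes and 26 transcripts for the difference, 5061 transcripts for age in IUGR islets, and 0 genes and 3427 transcripts for age in controls. Mbp at 10 weeks turned to 0.36. The higher calls made up 18.8% at 2 weeks (against 42.9%), 93.3% at 10 weeks, 3.85% for the difference (against 27.7%), 19.7% for age in IUGR islets (against 48.3%) and 7.03% for age in controls (against 53.2%). On counts outside the acinar list and the 20 most abundant transcripts, 282 transcripts passed at 2 weeks and 2 genes for the difference, and the higher share was 25.2% at 2 weeks, 55.7% at 10 weeks and 30.3% for age in controls. The cause was not tested.

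With each library left out in turn, 0 to 1 genes and 0 to 2350 transcripts passed at 2 weeks, 1 to 5 genes and 2971 to 7021 transcripts at 10 weeks, 1 to 6 genes and 1759 to 4983 transcripts for the difference, and 0 to 2 genes for age in controls. Whether the replicate numbers pair the samples was not settled, and the labels do not say so. Between same-numbered libraries, r of deviations from the group mean ran from -0.137 to 0.478, with 8 of 18 over 0.1. With the replicate block 1 gene (S100b, adjusted p = 0.0494) and 1223 transcripts passed at 2 weeks. Of 660 values of single genes under all alternatives, 95 lost their call with the sign kept and 11 gained one. The sign turned in 11 further values. Of these, 1 had been called and lost its call too (Mbp, above), and 10 were not called. Of the 10, 3 were at 2 weeks with the covariate (Sox10, Gfap and Cdh19) and the others for age in controls. Low counts of Gfap, and of Sox10 in IUGR islets at 10 weeks, limit what could be detected.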
